A study of Homo sapiens with 8 samples.

Results

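The tubulin mRNAs were followed by SLAM-Seq in U-2OS cells depleted of CGGBP1, a protein that binds CGG trinucleotide repeats. The 9 genes were taken by symbol from the 18388 genes listed by the authors, namely the α-tubulin genes TUBA1A, TUBA1B and TUBA1C, the β-tubulin genes TUBB, TUBB2A, TUBB3, TUBB4B and TUBB6, and the γ-tubulin gene TUBG1. U-2OS is a human osteosarcoma cell line, used here as a derivative that expresses the Tet-ON transactivator. Both groups carried an siRNA at 50 nM for 72 h, a control siRNA in siControl and a pool against CGGBP1 in siCGGBP1, and all 6 of their libraries, 3 per group, come from cells labeled with 75 µM 4-thiouridine (4sU) for 60 min. A further siControl library had no 4sU (0 µM) and another had 200 µM, and neither entered a test. All sample titles carry the term DMSO, whose role the labels do not state. The design therefore models a transient knockdown in 1 tumor cell line, and its labels do not state that replicates came from separate cultures, so that p-values measure the spread between these samples.

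Microtubules are polymers of heterodimers of α- and β-tubulin, and γ-tubulin forms the ring complex that nucleates them. The α and β genes encode isotypes that differ mainly in their C-terminal tails and in the tissues that use them. Cells adjust most α- and β-tubulin mRNAs to the amount of free tubulin by autoregulation, in which TTC5 recognizes the N-terminal start of nascent tubulin on the ribosome and, with SCAPER and the CCR4-NOT deadenylase, triggers decay of the mRNA. γ-tubulin mRNA is not known to be regulated in this way.

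Because autoregulation reads the first 4 residues of nascent α- and β-tubulin, the first 30 coding bases of 7 genes are given, read from the Ensembl canonical transcripts of GENCODE 44 with the first 4 codons in capitals.
TUBA1B: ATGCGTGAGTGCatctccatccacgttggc
TUBB: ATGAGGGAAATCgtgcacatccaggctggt
TUBB4B: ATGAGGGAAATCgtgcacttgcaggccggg
TUBB2A: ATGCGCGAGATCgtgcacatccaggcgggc
TUBB3: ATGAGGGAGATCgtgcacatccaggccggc
TUBB6: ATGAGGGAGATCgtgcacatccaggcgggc
TUBG1: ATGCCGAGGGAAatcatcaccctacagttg
TUBA1A and TUBA1C have the same 30 bases as TUBA1B. In the β-tubulin genes the 4 codons came in 3 spellings, shared by TUBB with TUBB4B and by TUBB3 with TUBB6, while TUBG1 has a different start. In GRCh38 the start codon of TUBA1B lies on the minus strand of chromosome 12 at 49131298 to 49131300, and that of TUBB on the plus strand of chromosome 6 at 30720507 to 30720509. The 3 α genes lie together on chromosome 12, with TUBA1A at 49184686 to 49189080, TUBA1B at 49127782 to 49131397 and TUBA1C at 49188736 to 49274600, so that the annotated spans of TUBA1A and TUBA1C overlap on opposite strands. TUBB2A also lies on chromosome 6, TUBB3 on chromosome 16, TUBB4B on chromosome 9, TUBB6 on chromosome 18 and TUBG1 on chromosome 17.

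SLAM-Seq counts the 3′ end reads of each gene and reads the incorporated 4sU as T-to-C conversions. Between 10127519 and 14221516 reads were counted in the 6 libraries, and all 9 genes passed the minimum of 100 reads in at least 3 of them, from 60 reads for TUBB2A in its lowest library upward. The siRNA target CGGBP1 had 107, 92.6 and 76.3 CPM (reads per 1000000 library reads after TMM normalization) in the siControl libraries and 18.0, 9.97 and 30.8 in the siCGGBP1 libraries, a log2 fold change of -2.22 (standard error 0.39, edgeR, adjusted p = 0.0137). Without siControl replicate 1 or siCGGBP1 replicate 1 its adjusted p was 0.0632 and 0.0851. The mesenchymal marker VIM was present at 2309 to 3229 CPM. Among the 7 tested genes of a list of 10 mesenchymal and osteoblast lineage markers, the matrix genes COL1A1 and SPARC were higher after knockdown. COL5A1 was also higher in every siCGGBP1 library (edgeR, adjusted p = 0.0807). CD44 was lower in every one (log2 fold change -0.87, edgeR, adjusted p = 0.103). VIM, FN1 and RUNX2 overlapped between the groups, ALPL reached at most 1.79 CPM, and COL1A2 and TWIST1 were not listed. The levels of ALPL, STMN2 and ELAVL4 and all list sums here are CPM scaled to total reads, without TMM. The summed list level was 3726 to 4455 CPM in siControl and 5479 to 7428 CPM in siCGGBP1. The part of these differences in the tubulin values was not tested. The summed levels of epithelial, blood cell and endothelial marker lists were at most 19.2, 13.5 and 2.57 CPM, with CDH1, CD3E, LYZ and PECAM1 at 0. The neuronal list summed to 138 to 240 CPM, of which NEFL, RBFOX3 and SNAP25 overlapped between the groups, while STMN2 and ELAVL4 stayed at or below 1.62 and 0.689 CPM. The neuronal marker SYP had 6.44, 8.46 and 1.12 CPM in siControl and 17.1, 35.4 and 18.9 CPM in siCGGBP1 (log2 fold change 2.15, edgeR, adjusted p = 0.16), and its part in the tubulin values was not tested.

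Tubulin mRNA took a smaller share of reads in every CGGBP1-depleted library. The 9 genes together took 0.775%, 0.888% and 0.928% of reads in the siControl libraries and 0.542%, 0.562% and 0.540% in the siCGGBP1 libraries. All siCGGBP1 libraries lay below all siControl libraries, and the siControl libraries with 0 µM and 200 µM 4sU had 0.859% and 0.785%. In these bulk samples, fewer cells of a type and less RNA per cell cannot be told apart. TUBA1B, TUBA1C and TUBB fell in total RNA (edgeR, adjusted p under 0.05 at any fold), while no tubulin gene rose at this threshold. Of all tested genes, 1.21% were lower and 0.543% higher by the same rule, beside 3 and 0 of the 9 tubulin genes. None of the 9 passed the call of the study, which also asks for an absolute log2 fold change above 1. Applied to the edgeR fit, this call was met by 1.4% of tested genes. The study applied its thresholds to the DESeq2 Wald test, so this share is not its own count. The groups did not overlap, with siCGGBP1 lower, for 5 of the 9 genes (TUBA1B, TUBA1C, TUBB, TUBB3 and TUBB4B), beside 12.3% of tested genes. The median log2 fold change was -0.48 over the 9 tubulin genes and -0.00 over the 10138 tested genes.

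**Figure D1:**
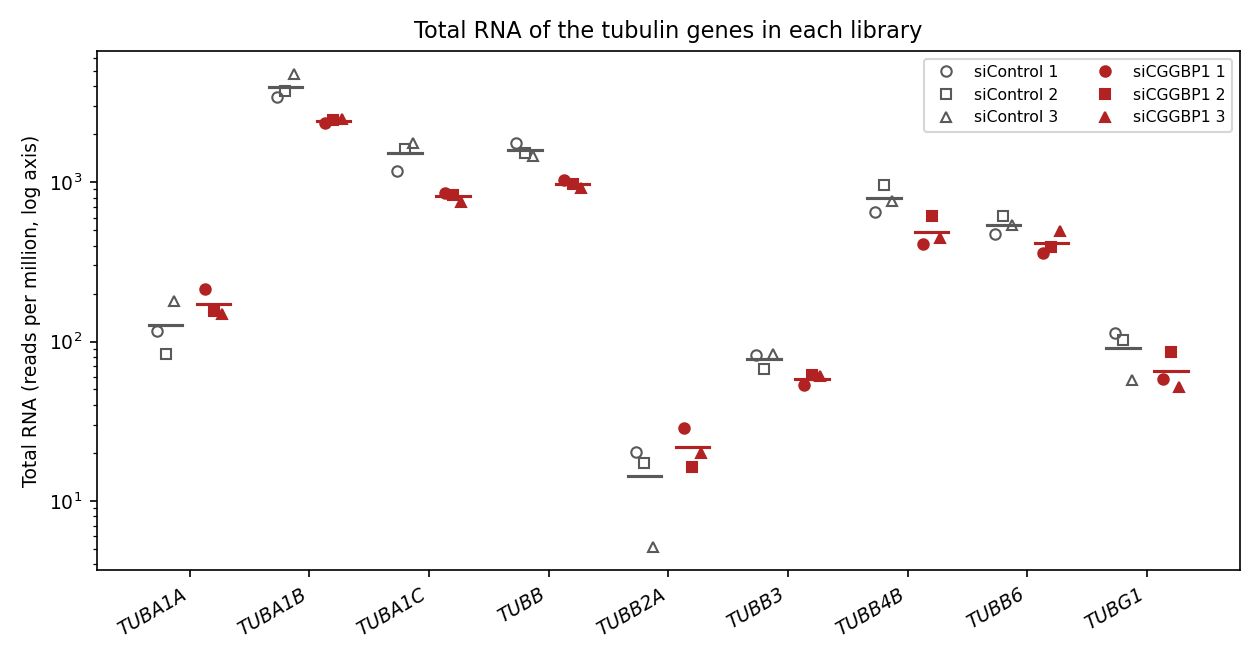
Total RNA of each tubulin gene in CPM on a log axis, with siControl as open gray symbols, siCGGBP1 as filled red symbols, the replicate number as the symbol shape and group means as lines. TUBA1B, TUBA1C, TUBB, TUBB3 and TUBB4B have all 3 siCGGBP1 libraries below all 3 siControl libraries, and the means of TUBA1A and TUBB2A lie higher in siCGGBP1 with overlapping libraries.

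Among the α-tubulin genes, the abundant isotypes TUBA1B and TUBA1C fell and the minor isotype TUBA1A did not. TUBA1B, the main α-tubulin of proliferating cells, had 3411, 3744 and 4747 CPM in the siControl libraries and 2365, 2450 and 2482 CPM in the siCGGBP1 libraries. The siCGGBP1 libraries were close to each other and all lower, and the mean fell from 3967 ± 695 to 2432 ± 60.5 CPM (SD, n = 3 each). Its log2 fold change was -0.71 (standard error 0.14, edgeR, adjusted p = 0.0259), or 61.3% of the control level. TUBA1C, another widely expressed α isotype, had 1174, 1613 and 1759 CPM in siControl and 861, 831 and 748 CPM in siCGGBP1. Again no library of one group reached the other, and the log2 fold change of -0.90 (standard error 0.17, edgeR, adjusted p = 0.0209) placed it at 53.7% of control. TUBA1A, the α isotype best known from neurons, had 117, 83.0 and 180 CPM in siControl and 213, 156 and 150 CPM in siCGGBP1. Its libraries overlapped, with siCGGBP1 higher in 7 of 9 pairs of libraries, and the log2 fold change was 0.45 (standard error 0.28, edgeR, adjusted p = 0.464). This value depended on single libraries, at 0.22 without siControl replicate 2, 0.28 without siCGGBP1 replicate 1 and 0.79 without siControl replicate 3, and it was 0.89 (edgeR, adjusted p = 0.0526) without replicate 3 of both groups.

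Among the β-tubulin genes TUBB fell, and TUBB4B had a like fold change with a wider spread. TUBB, the major β isotype of most dividing cells, had 1766, 1533 and 1452 CPM in siControl and 1032, 971 and 915 CPM in siCGGBP1. Again no siCGGBP1 library reached the lowest siControl library, and the log2 fold change was -0.70 (standard error 0.15, edgeR, adjusted p = 0.0302). TUBB4B, a broadly expressed β isotype also used in cilia, had 649, 961 and 764 CPM in siControl and 408, 611 and 446 CPM in siCGGBP1. Replicate 2 was the highest library in both groups, and the log2 fold change of -0.70 (standard error 0.20) had an adjusted p of 0.105 without and 0.0294 with the replicate number as a block (edgeR). TUBB6, which is rich in mesenchymal cells, had 474, 612 and 535 CPM in siControl and 360, 392 and 494 CPM in siCGGBP1, with siCGGBP1 lower in 8 of 9 pairs of libraries. The log2 fold change of TUBB6 was -0.38 (standard error 0.18, edgeR, adjusted p = 0.332).

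The remaining genes were expressed at low levels. TUBB3, the β isotype used as a marker of neurons, had 81.8, 67.3 and 83.7 CPM in siControl and 53.0, 61.7 and 60.5 CPM in siCGGBP1. Its libraries did not overlap, but the log2 fold change of -0.41 (standard error 0.25, edgeR) had an adjusted p of 0.452. Of the 50-base stretches in the last 300 bases of the TUBB3 transcript, 98.0% also occur in a readthrough gene of the same locus, listed as AC092143.1, so the split of reads between them is uncertain. AC092143.1 had 61.4, 50.9 and 55.0 CPM in siControl and 30.6, 44.2 and 43.2 CPM in siCGGBP1, a log2 fold change of -0.50 (standard error 0.29, edgeR, adjusted p = 0.423). TUBB2A, a β isotype abundant in brain, had 20.3, 17.4 and 5.16 CPM in siControl and 28.6, 16.3 and 20.0 CPM in siCGGBP1. Its log2 fold change of 0.60 (standard error 0.57, edgeR, adjusted p = 0.661) rested on few reads, and 0.20 remained without siControl replicate 3. TUBG1, the γ-tubulin of the nucleating ring complex, had 113, 102 and 57.2 CPM in siControl and 58.1, 86.0 and 51.8 CPM in siCGGBP1. The libraries of TUBG1 overlapped, with a log2 fold change of -0.48 (standard error 0.31, edgeR, adjusted p = 0.489).

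**Figure D2:**
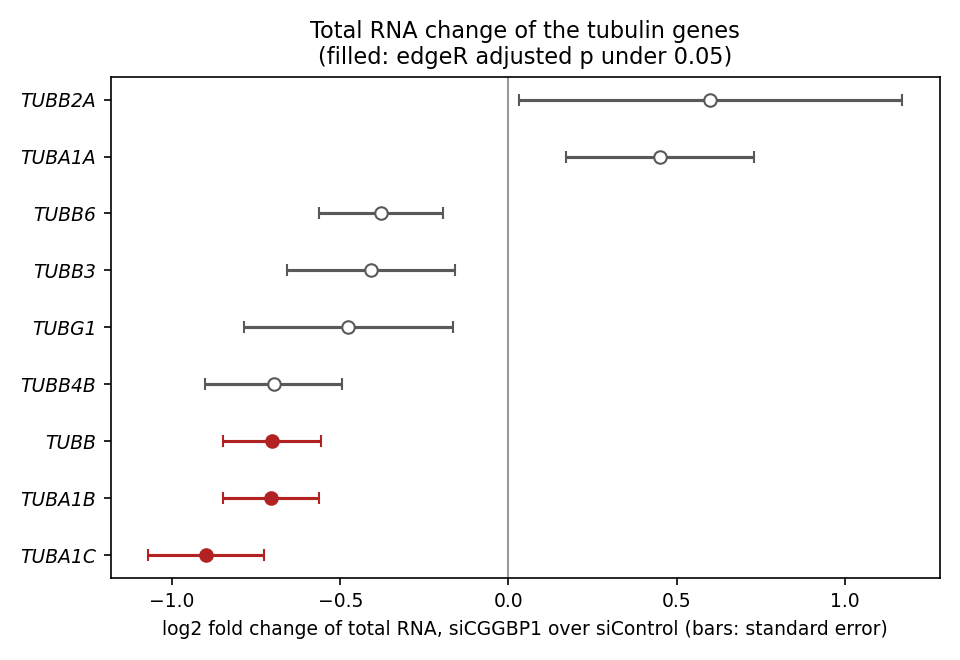
Log2 fold change of total RNA, siCGGBP1 over siControl, with standard errors as bars and filled points for an edgeR adjusted p under 0.05. TUBA1C, TUBA1B and TUBB lie between -0.90 and -0.70 and are filled, and TUBA1A and TUBB2A lie above 0 with open points.

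Summed by role, the 3 α genes had 4702, 5440 and 6685 CPM in siControl and 3439, 3437 and 3379 CPM in siCGGBP1. The 5 β genes had 2992, 3191 and 2840 CPM in siControl and 1882, 2053 and 1935 CPM in siCGGBP1. Both sums were thus lower in every siCGGBP1 library, with means at 60.9% and 65.0% of control. In siControl the order of levels, in 3′ end reads that do not scale with transcript length, was TUBA1B, TUBB, TUBA1C, TUBB4B, TUBB6, TUBA1A, TUBG1, TUBB3 and TUBB2A. The ranges of TUBB and TUBA1C overlapped, as did those of TUBA1A with TUBG1 and of TUBG1 with TUBB3, and the other neighbors did not overlap. The order of the means was the same in siCGGBP1, where TUBB4B overlapped with TUBB6 and TUBG1 with TUBB3.

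Reads shared with paralogs make some of these counts uncertain. The coding sequences of TUBA1A and TUBA1B are identical at 97.2% of 1353 bases, and the authors' pipeline counted reads that match several genes in fractions. In the last 300 bases of the transcripts, where 3′ end reads fall, 14.3% of the 50-base stretches of TUBA1A also occur in another gene (TUBA1B or the pseudogene TUBAP2), against 13.9% for TUBA1B, 19.9% for TUBB2A and 7.17% for TUBB4B. TUBA1C, TUBB, TUBB6 and TUBG1 share none. A fractional count appeared in all 6 libraries for TUBA1A, TUBA1B and TUBB4B, in 5 for TUBA1C and TUBB and in 2 or 3 for the other 4 genes.

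The leave-one-out fits bear on all 3 genes that fell. The adjusted p of TUBA1B and TUBA1C was 0.0338 and 0.0154 without siControl replicate 1, and 0.0544 to 0.140 for TUBA1B and 0.0563 to 0.102 for TUBA1C without siControl replicate 2 or 3 or any siCGGBP1 replicate. The adjusted p of TUBB was 0.0448 without siControl replicate 3 and 0.0757 to 0.117 without any other library. In these fits, which have fewer samples, the log2 fold changes stayed between -0.80 and -0.55 for TUBA1B, -1.05 and -0.78 for TUBA1C and -0.76 and -0.62 for TUBB. Of the 9 genes, TUBA1C alone met the call of the study in a fit that left out 1 library, the one without siControl replicate 1.

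The shares of TUBA1A among the 3 α genes and of TUBB2A among the 5 β genes were higher in every siCGGBP1 library. This comparison was chosen after the values were seen. A share rises where the other genes of its sum fall, so these shares are not independent of the falls given above. In CPM both genes overlapped between the groups. TUBA3C and TUBB2B, other α- and β-tubulin genes with means of 337 and 105 CPM in siControl, are outside the sums. TUBA1A accounted for 2.49%, 1.53% and 2.69% of the reads of the 3 α genes in siControl and for 6.20%, 4.54% and 4.43% in siCGGBP1. The siControl libraries with 0 µM and 200 µM 4sU had 2.14% and 2.44%, within the range of the other siControl libraries. The mean share was 2.24 ± 0.622% and 5.06 ± 0.991% (SD, n = 3 each, two-sided exact permutation test, p = 0.1, the smallest that 3 against 3 allow, and 0.4 after Benjamini-Hochberg adjustment over 8 shares). TUBB2A accounted for 0.677%, 0.547% and 0.182% of the reads of the 5 β genes in siControl and for 1.52%, 0.795% and 1.04% in siCGGBP1, also without overlap and with the same p in the exact permutation test. The shares of the other 6 genes overlapped between the groups. TUBA1B held 70.8 ± 1.87% and 71.2 ± 2.34% of α reads, and TUBB 52.7 ± 5.67% and 49.8 ± 4.36% of β reads (SD, n = 3 each).

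**Figure D3:**
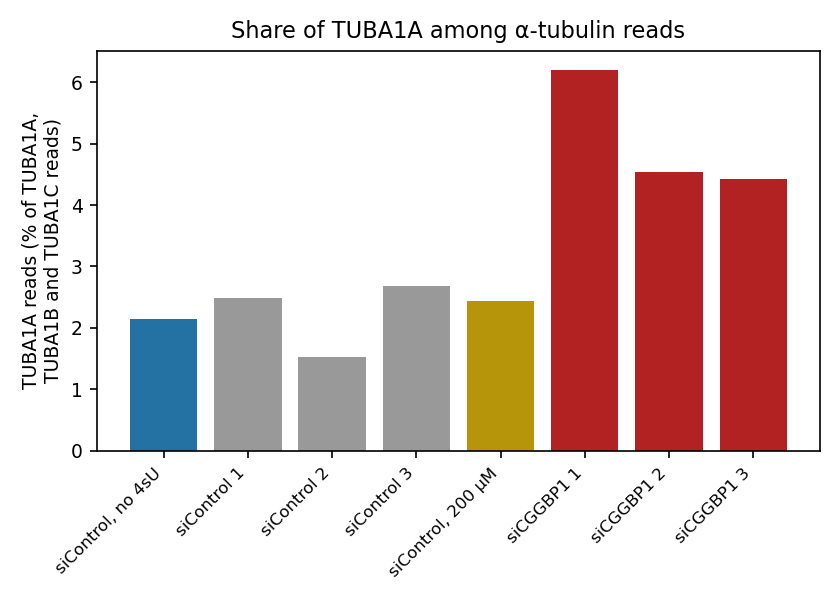
TUBA1A reads as a percentage of TUBA1A, TUBA1B and TUBA1C reads, 1 bar per library, with the siControl libraries at 0, 75 and 200 µM 4sU in blue, gray and yellow and the siCGGBP1 libraries in red. The 5 siControl bars lie between 1.53% and 2.69% and the 3 siCGGBP1 bars between 4.43% and 6.20%.

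The new-to-total ratio asks which share of each mRNA was made during the labeling. For each gene and library it was estimated by GRAND-SLAM, and 90% credible limits follow each value in parentheses where given. TUBA1B had the lowest mean ratio of the 9 genes in siControl. TUBA1B had 1.46% (1.32 to 1.62), 1.18% (1.07 to 1.30) and 1.27% (1.14 to 1.40) in siControl. In siCGGBP1 it had 2.11% (1.91 to 2.33), 1.70% (1.55 to 1.87) and 2.48% (2.31 to 2.68). All siCGGBP1 values lay above all siControl values, with means of 1.30 ± 0.143% and 2.10 ± 0.390% (SD, n = 3 each, two-sided exact permutation test, p = 0.1, the smallest possible, and 0.45 adjusted over the 9 genes). TUBB had 2.38%, 1.95% and 2.31% in siControl and 3.11%, 2.42% and 2.81% in siCGGBP1. Here too the groups did not overlap (exact permutation test, p = 0.1), but the credible limits of siControl replicate 1 (2.13 to 2.66) and siCGGBP1 replicate 2 (2.14 to 2.73) did. Ratios higher in every siCGGBP1 library occurred for these 2 of the 9 genes and for 2.85% of tested genes. Replicate 3 of siControl and of siCGGBP1 had a ratio of 0 for 57.4% and 59.8% of tested genes. A gene at 0 in any siCGGBP1 library could not be higher in every one, which holds the 2.85% down. TUBA1B and TUBB had ratios above 0 in all 6 libraries, so their count is not read as an excess over that share. The groups of TUBA1B and TUBB also did not overlap in replicates 1 and 2 alone.

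**Figure D4:**
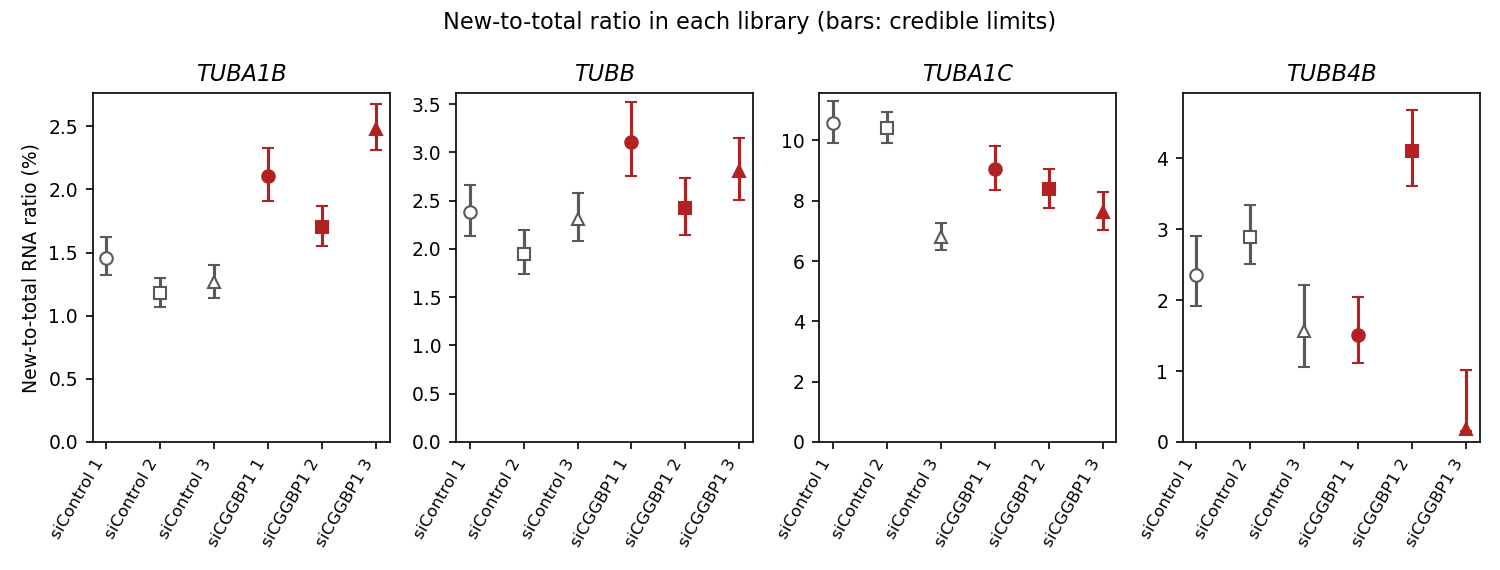
New-to-total RNA ratio of the 4 tubulin genes with most reads in each library, with 90% credible limits as bars, siControl open and gray, siCGGBP1 filled and red. The siCGGBP1 points of TUBA1B (1.70% to 2.48%) and TUBB (2.42% to 3.11%) lie above the siControl points, and those of TUBA1C and TUBB4B overlap with them.

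The other 7 genes had overlapping ratios. TUBA1C had 10.6%, 10.4% and 6.80% in siControl and 9.06%, 8.38% and 7.63% in siCGGBP1 (exact permutation test, p = 0.6), several times the ratio of TUBA1B. TUBB4B had 2.36%, 2.89% and 1.56% in siControl and 1.51%, 4.11% and 0.18% in siCGGBP1. TUBB6 had 3.05%, 5.25% and 1.64% in siControl and 2.83%, 0.59% and 0 in siCGGBP1. TUBG1 had 9.12%, 12.4% and 23.1% in siControl and 17.5%, 8.75% and 8.38% in siCGGBP1, and TUBA1A ranged from 0 to 17.3%. For the scarce isotypes single libraries set the value. TUBB3 had 10.6% in siControl replicate 3 and 10.5% in siCGGBP1 replicate 1 but at most 0.95% in the other 4 libraries. TUBB2A was above 0 in siControl replicate 1 alone (11.7%). The median ratio of the 9 genes was 3.05%, 2.89% and 1.64% in siControl and 3.11%, 2.42% and 2.48% in siCGGBP1, and the means differed by 0.143 percentage points, less than either SD (0.772 and 0.382, exact permutation test, two-sided, p = 0.8).

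The conversions behind these ratios can be set against the library without 4sU. TUBA1B had 0.118, 0.0905 and 0.0896 conversions per 100 covered T in siControl and 0.160, 0.147 and 0.149 in siCGGBP1, against 0.0165 without 4sU. Divided by the rate of the whole library, TUBA1B also stood higher in every siCGGBP1 library, at 0.607, 0.651 and 0.619 against 0.506, 0.370 and 0.489. TUBA1B was the 1 gene of the 9 that was higher without overlap in either measure, beside 4.36% of tested genes for the rate and 3.8% for the rate over that of the library. TUBB had 0.168, 0.113 and 0.118 in siControl and 0.200, 0.183 and 0.145 in siCGGBP1, which overlap, and 0.0254 without 4sU. Reads with at least 2 conversions, which are rare without 4sU, numbered 81.0, 66.3 and 46.6 per 10000 TUBA1B reads in siControl and 108, 102 and 122 in siCGGBP1. For TUBB they numbered 119, 104 and 132 in siControl and 150, 150 and 144 in siCGGBP1, so that both genes had more of them in every siCGGBP1 library. TUBB6 had fewer in every one, with 121, 215 and 99.6 in siControl and 76.2, 30.2 and 1.41 in siCGGBP1. Of all tested genes, 2.09% were higher and 2.49% lower without overlap in this measure, beside 2 and 1 of the 9. A gene with no such read in any one siCGGBP1 library could not be higher. Nor could a gene with none in a siControl library be lower, so both shares are held down by genes with few reads. These measures come from the same reads as the ratio and are not independent of it. Ranked among the tested genes of its own library, TUBA1B stood at percentiles 34.5, 30.6 and 63.2 in siControl and 44.5, 42.9 and 67.1 in siCGGBP1, which overlap.

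A few genes carried many conversions without 4sU. TUBA1C had 0.172 per 100 covered T in that library, 49.3% of its mean siControl rate at 75 µM, TUBG1 had 0.235, or 55.1%, and TUBA1A had 0.221, or 124%, so that the rate of TUBA1A without 4sU was above its mean siControl rate at 75 µM. TUBB6 had 0.0703, or 38.9%, near its rates in siControl replicate 3 (0.0717) and siCGGBP1 replicate 2 (0.0744). The part of these positions in the ratios of these genes was not tested. TUBA1C had 238, 366 and 236 reads with at least 2 conversions in siControl and 146, 248 and 153 in siCGGBP1, against 12 in the larger library without 4sU. TUBG1 had 2, 2 and 0 such reads in siControl and 9, 11 and 0 in siCGGBP1, and none without 4sU. At 200 µM 4sU, TUBA1B and TUBB had 0.0766 and 0.103 conversions per 100 covered T, below the 3 siControl libraries at 75 µM, while TUBA1A and TUBB4B had 0.312 and 0.221, above all 3.

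**Figure D5:**
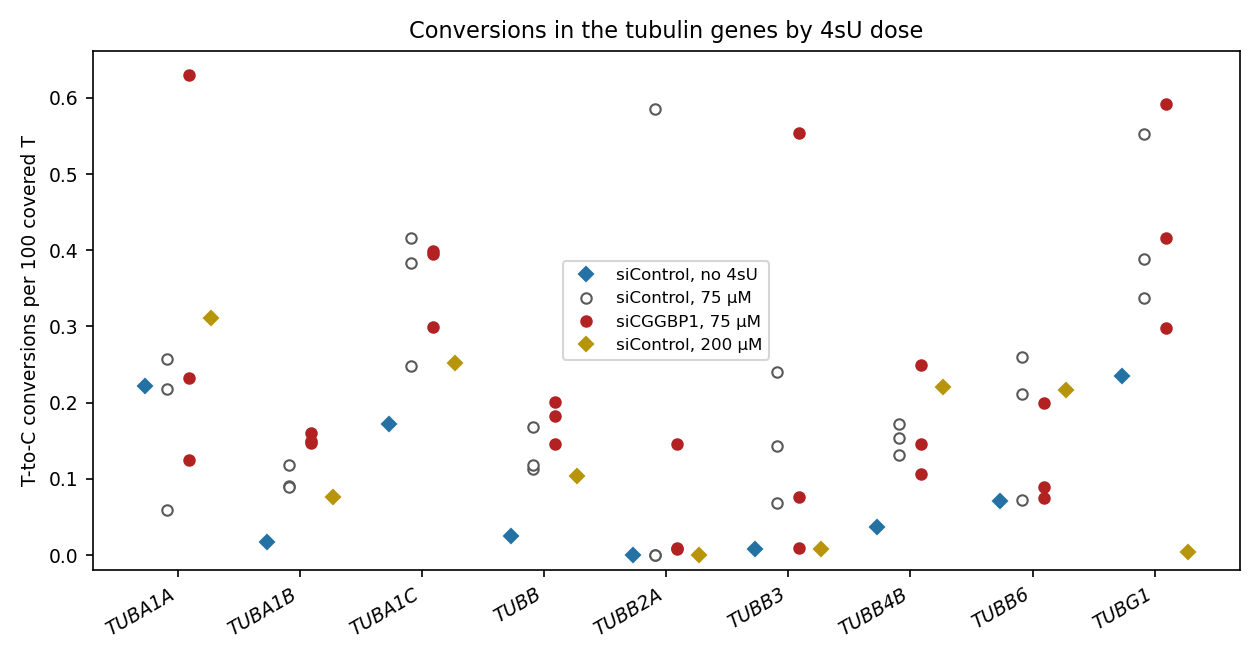
T-to-C conversions per 100 covered T of each tubulin gene, with 1 point per library and color for siControl without 4sU (blue diamonds), at 75 µM (open gray circles) and at 200 µM (yellow diamonds) and for siCGGBP1 at 75 µM (red circles). Blue points of TUBA1B and TUBB lie at 0.0165 and 0.0254, well below their 75 µM points, while the blue points of TUBA1A and TUBG1 lie above 0.2.

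Newly synthesized RNA, the read count multiplied by the ratio, overlapped between the groups for TUBA1B. It had 49.8, 44.2 and 60.3 new CPM in siControl and 49.9, 41.7 and 61.5 in siCGGBP1, with a log2 fold change of -0.01 (standard error 0.49, edgeR, adjusted p = 1). TUBB had 42.1, 29.9 and 33.5 new CPM in siControl and 32.1, 23.5 and 25.7 in siCGGBP1, a log2 fold change of -0.38 (standard error 0.67, edgeR, adjusted p = 1). TUBA1C had 124, 168 and 120 new CPM in siControl and 78.0, 69.6 and 57.1 in siCGGBP1. The libraries of TUBA1C did not overlap, as for TUBG1 and for 4.45% of tested genes in the lower direction. That share is held down by genes at 0 in a siControl library, which could not be lower. The log2 fold change of TUBA1C was -1.01 (standard error 0.33), with an unadjusted p of 0.00197 and an adjusted p of 0.954 (edgeR). At the thresholds of the study, the edgeR fit of newly synthesized RNA called none of the 9 genes and 0.0493% of tested genes. The study used the DESeq2 Wald test and reported more changed transcripts in newly synthesized than in total RNA. At an unadjusted p under 0.05 edgeR had TUBA1C alone among the 9 and 319 of all 10138 tested genes, and DESeq2 called no tubulin gene. The biological coefficient of variation fitted to newly synthesized RNA was 1.78, against 0.399 for total RNA. In data simulated with this spread for every gene and a planted log2 fold change of 2, the fit of newly synthesized RNA recovered no changed gene. Single genes can vary less than this setting, with the standard errors of 0.33 for TUBA1C and 0.49 for TUBA1B given above. The absence of calls is therefore not read as absence of change, and the simulation does not give the power for a single gene. TUBA1A had 7.33, 4.55 and 0 new CPM in siControl and 36.9, 6.17 and 4.33 in siCGGBP1, TUBG1 10.3, 12.7 and 13.2 against 10.2, 7.52 and 4.33.

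CGGBP1 is named for its binding to CGG repeats, so the RefSeq promoter windows of the 9 genes (GRCh38.p14, 250 bases before to 50 after each start, 14 windows in all) were searched for uninterrupted CGG units on either strand. Motifs were allowed to overlap. No window held 3 units (CGGCGGCGG), which 6.21% of all 35116 promoter windows hold. Tracts of 2 units (CGGCGG) occur in 29.6% of all windows and in 5 of the 14 tubulin windows (35.7%), 1 each of TUBA1B, TUBB, TUBB2A, TUBB3 and TUBB6. TUBA1A, TUBA1C, TUBB4B and TUBG1 have none. Stretches of 30 bases around 1 such tract upstream of the start are given for the pair of genes that fell and have one, with the tract in capitals.
TUBA1B: agcccgcctctgCGGCGGccaggccgggcg
TUBB: ggtggtcgactgCGGCGGcagctctttcct
The first lies at chr12:49131505-49131534 on the minus strand, where the tract begins 127 bases before the start. The second lies at chr6:30721607-30721636 on the plus strand, 19 bases before the start of the second of 2 TUBB windows, which is downstream of the start codon given above, and the first TUBB window holds no such tract. These matches describe the letters and not binding.

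Other genes of the tubulin pathway were taken from lists chosen with earlier results of these data known. Of the 15 other tubulin genes, 10 are listed and 6 were tested, with 0 lower and 0 higher (edgeR, adjusted p under 0.05) and a median log2 fold change of -0.67. The lowest adjusted p was that of TUBB2B, a β isotype closely related to TUBB2A. It had 88.4, 105 and 121 CPM in siControl and 33.5, 43.7 and 60.5 CPM in siCGGBP1, a log2 fold change of -1.19 (standard error 0.28, edgeR, adjusted p = 0.0552, and 0.0307 with the replicate block). TUBB2B met the call of the study with that block, by DESeq2, with no filter on low counts, without siCGGBP1 replicate 3 and without replicate 3 of both groups. TUBA3C had 239, 455 and 316 CPM against 186, 235 and 205 (log2 fold change -0.69, edgeR, adjusted p = 0.162). For TUBB4A the log2 fold change was -1.73 (edgeR, adjusted p = 0.203) and -0.69 without siControl replicate 1. In total RNA, 4 of the 9 tubulin genes and 1661 of all 10138 tested genes had an unadjusted p under 0.05 (edgeR).

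Of 22 tested genes for tubulin folding, which include the chaperonin CCT and its partner prefoldin, PFDN1 fell and none rose, with a median log2 fold change of -0.23. At an adjusted p under 0.05 (edgeR), 1.21% of all tested genes were lower and 0.543% higher. PFDN1, a prefoldin subunit, had a mean of 166 ± 42.6 CPM in siControl and 50.4 ± 17.9 CPM in siCGGBP1 (SD, n = 3 each) without overlap, a log2 fold change of -1.72 (standard error 0.31, edgeR, adjusted p = 0.0161). Its adjusted p was 0.0772 and 0.0732 without siControl or siCGGBP1 replicate 1 and 0.0544 without siControl replicate 3. The CCT subunits CCT2 and CCT8 had log2 fold changes of -0.81 and -0.51 (edgeR, adjusted p = 0.0748 and 0.133), and CCT2 had 0.0270 with the replicate block. Both had all 3 siCGGBP1 libraries below the siControl libraries, as had CCT4, CCT5, CCT6A and PFDN4 of this list and 12.3% of tested genes. TBCD had all siCGGBP1 libraries above the siControl libraries.

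None of the 15 genes of tubulin mRNA autoregulation, the CCR4-NOT complex included, was lower or higher at an adjusted p under 0.05 (edgeR). Their median log2 fold change was -0.12. Without overlap, SCAPER, CNOT6 and TOB2 were higher, and CNOT1 and CNOT7 were lower, as were 12.3% of tested genes. TOB2, an adaptor of the deadenylase, had 33.4, 37.5 and 43.5 CPM in siControl and 82.1, 57.1 and 104 CPM in siCGGBP1, a log2 fold change of 1.09 (edgeR, adjusted p = 0.0869). The catalytic subunits CNOT7 and CNOT6 had log2 fold changes of -0.64 and 0.95 (edgeR, adjusted p = 0.115 and 0.161). TTC5, named outside the rule because it recognizes nascent tubulin, was low at 14.3, 10.8 and 6.36 CPM in siControl and 10.6, 4.14 and 13.1 CPM in siCGGBP1. Its partner SCAPER, also named outside the rule, had 55.5, 42.0 and 53.0 CPM in siControl and 76.5, 66.7 and 65.5 CPM in siCGGBP1. The log2 fold change of SCAPER was 0.47 (standard error 0.26, edgeR, adjusted p = 0.403).

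The genes that modify, nucleate or bind microtubules gave no call. Of 11 tested genes for tubulin modification 0 were lower and 0 higher, with a median log2 fold change of 0.31 and 2 of the 11 below 0. ATAT1, the α-tubulin acetyltransferase, had a log2 fold change of 1.10, AGBL5, a deglutamylase, 0.99 and TTLL5, a polyglutamylase, 0.71 (edgeR, adjusted p = 0.219, 0.262 and 0.356). Of 19 tested genes of the γ-tubulin complex and augmin, 0 were lower and 0 higher, with a median of 0.04. The complex subunits MZT2B and MZT2A and the augmin subunit HAUS4 had log2 fold changes of 0.74, 0.55 and 0.48 (edgeR, adjusted p = 0.268, 0.446 and 0.398), and MZT2B had 0.0369 with the replicate block. Without 1 library the log2 fold change ranged from 0.41 to 1.12 for MZT2B, with the lowest value without siCGGBP1 replicate 2 and the highest without siControl replicate 2, and from 0.23 (without siControl replicate 1) to 0.79 (without siControl replicate 2) for MZT2A. Of 33 tested microtubule-associated and severing proteins, 0 were lower and 0 higher, with a median of -0.19. The mitotic proteins PRC1 and TPX2 had log2 fold changes of -0.58 and -0.47, and the severing enzyme FIGN had 0.76 (edgeR, adjusted p = 0.177, 0.221 and 0.28).

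The summed level of the 9 tubulin genes was 7755, 8880 and 9284 CPM (scaled to total reads) in siControl, 5418, 5618 and 5403 CPM in siCGGBP1, and 8591 and 7846 CPM at 0 µM and 200 µM 4sU. Over these 8 libraries, the 5 tested genes with the most similar profile were AC006213.2, CCDC86, MCM8, COPS3 and CANX, with Pearson's r of log2 values between 0.973 and 0.985 among 10129 ranked genes. The 8 libraries fall into 5 siControl and 3 siCGGBP1 libraries, so these values describe mainly the difference between the groups. In the order named, their log2 fold changes in total RNA were -1.05, -1.63, -0.51, -1.50 and -1.27, with an adjusted p of 0.214 for MCM8 and at most 0.0336 for the others (edgeR).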

How the data were processed

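SLAM-Seq was compared between 3 siControl and 3 siCGGBP1 libraries at 75 µM 4sU. Per the submitters' processing notes and the study's methods, the authors removed ribosomal reads with Bowtie2 (2.3.0), mapped to GRCh38 with STAR (2.5.3a) and ran GRAND-SLAM. Their deposited table gives reads and T-to-C conversions per gene in the form of expected counts, which are not normalized and are fractional for 10864 genes. T coverage per gene was deposited by the authors as an unnormalized signal. The authors deposited the new-to-total ratio as a fraction, with credible limits. Columns named min2 were taken as the number of reads with 2 or more conversions, from the name and their low level without 4sU.

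Rounded counts of the 10138 of 18388 genes that reached 100 reads in 3 of 6 libraries were fitted with edgeR 4.0.16 (TMM, quasi-likelihood F test) in R 4.3.3, with Benjamini-Hochberg adjustment over all of them. Genes were called at an adjusted p under 0.05, alone or with a log2 fold change beyond 1 in either direction. The standard error was taken from the fold change and the square root of F. Newly synthesized RNA was reads times ratio, scaled by total reads. The fits were tested on simulated data, in which that of total RNA recovered most changed genes and that of newly synthesized RNA recovered none. Ratios and shares were compared by exact permutation (scipy 1.17.1).

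Named genes were the 9 tubulin genes, CGGBP1, up to 3 genes with the lowest adjusted p per list and the 5 most similar profiles. The genes and lists were chosen with earlier results of these data known. Same-numbered libraries of both groups deviated together (r = 0.122, 0.216 and 0.105 over 10138 genes), so a replicate block was also fitted. Alternatives were DESeq2 (1.42.0), other scalings, filters and ratios, and leaving out libraries. The sources used here mention no molecular identifiers, so reads may include PCR copies.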

Additional observations from a re-analysis of the deposited data

Results flagged for a closer look

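The siControl library with 200 µM 4sU entered no test between groups. Its conversion rate over the 9 tubulin genes was 0.139 per 100 covered T. The library without 4sU had 0.0597, and the 6 libraries at 75 µM had 0.130 to 0.234. It had 54.2 reads with at least 2 conversions per 10000 tubulin reads, against 1.52 without 4sU and 69.9 to 143 at 75 µM. Over all genes, the 200 µM library had 0.218 conversions per 100 covered T, also within the 0.183 to 0.263 of the 75 µM libraries. It had a ratio of 0 for 55.6% of tested genes. Over the tubulin genes and over all genes, the conversion rate at 200 µM lay below siControl replicates 1 and 2 at 75 µM and above siControl replicate 3. Tubulin reads with at least 2 conversions were fewer than in all 6 libraries at 75 µM. Whether the tubulin genes differ from other genes in this was not tested. The dose has 1 library, and its difference from 75 µM was not tested.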

How the results depend on the processing

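Of the alternatives for total RNA, DESeq2's test, no filter and the replicate block gave 4 tubulin genes at an adjusted p under 0.05 in place of 3, TUBB4B being the added gene in each (adjusted p = 0.0136, 0.0311 and 0.0294). By DESeq2's test TUBB2B, TUBA3C, CCT2, CCT8, TOB2 and CNOT7 also had an adjusted p under 0.05 (0.00333 to 0.0497). DESeq2 size factors and a minimum of 10 reads gave 3. Leaving out 1 library gave 0 to 2, and by the call of the study 0 to 1, with fewer samples in each fit. Leaving out replicate 3 of both groups, chosen after seeing the data, gave 3. For all genes, the block raised the lower count from 123 to 161, and among the tubulin genes it changed no other call than that of TUBB4B. In newly synthesized RNA no alternative called any of the 9 genes. This is not read as stability, since the main fit recovered no changed gene in data simulated with the same spread for every gene. With the replicate block the log2 fold change of TUBB3 turned from -0.61 to 2.10, and without replicate 3 of both groups to 3.35. Leaving out 1 library moved that of TUBB3 between -3.37 and 2.76 and that of TUBA1B between -0.16 and 0.12. TUBB2A has no new read without siControl replicate 1, so that fit gives no value. The difference in the median ratio was -0.30 to 0.405 percentage points without 1 library, 0.143 with the replicate block (exact permutation of signs, p = 0.75) and 0.182 as a read-weighted ratio. The cause of these shifts was not tested. Newly synthesized RNA was 0 in at least 1 library for TUBA1A, TUBB2A, TUBB3 and TUBB6.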
